A study of Mus musculus with 4 samples.

Results

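Aminoacyl-tRNA synthetases are the enzymes that join each amino acid to its transfer RNA (tRNA), and 42 genes of these enzymes and their partners were read in RNA sequencing libraries of mouse fetal erythroid cells. The members were taken by symbol from the deposited table of 10716 genes, and all 42 were found and tested. No cut on measured values was applied, but the set was chosen with earlier results of these data known. They are 21 genes of cytosolic enzymes, 17 genes of mitochondrial enzymes (symbols that end in ars2), the amidotransferase subunit gene Qrsl1, and the 3 scaffold genes Aimp1, Aimp2 and Eef1e1. Every member passed the low-count filter, and the lowest single count was 50, for Pars2.

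The libraries came from erythroid cells of C57BL/6 fetal liver at embryonic day 14.5, sorted as positive for the yellow fluorescent protein of the R26eYFP reporter. Of 4 libraries, 2 are labelled as ADAR knockout with the genotype Epor-Adar / + (replicates 1 and 2), and 2 are wild type (replicates 3 and 8), here called controls. The knockout uses Cre recombinase driven by Epor, the erythropoietin receptor gene, which is active in erythroid cells, and the labels state neither whether 1 or both Adar alleles were lost nor whether the controls carry Cre. The total count per library ran from 28356401 to 44016809, and nothing in the labels says that each library came from a separate embryo, so that spread between replicates may be technical.

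Mammalian cells keep largely separate sets of these enzymes: nuclear genes encode both the enzymes that work in the cytosol and those that are imported into mitochondria to charge the tRNAs of the mitochondrial genome. In the cytosol 8 of the enzymes assemble with the scaffold proteins AIMP1, AIMP2 and AIMP3 (the product of Eef1e1) into the multi-synthetase complex, while the others are free. When uncharged tRNA accumulates, the kinase GCN2 phosphorylates the initiation factor eIF2alpha, which favours translation of the transcription factor ATF4, and ATF4 is known to act on the genes of many cytosolic synthetases. Red cell precursors make large amounts of globin, a synthesis that depends on charged tRNA.

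Facts of the whole series that touch these values are as follows. Adar was at 67.1 and 102 CPM in the libraries labelled knockout and at 50.9 and 46.9 CPM in the controls. CPM are read counts scaled by the TMM-adjusted size of each library. The count of the targeted gene was thus higher under the knockout label. Reads by exon were not examined, so this count does not test the loss of Adar. Y-linked counts did not match the labelled sex of 3 among the 4 libraries. Of 11 erythroid markers 10 were in the table, with summed levels of 71257 and 71944 CPM in the libraries labelled knockout and 101378 and 67249 CPM in the controls. Knockout-labelled replicate 1 stood apart: Klf1, an erythroid transcription factor gene, was at 204 CPM there and at 520 to 689 CPM in the other 3, and 7 measured neutrophil and mast cell markers of 10 listed summed to 305 CPM there against 37.3 to 45.3 CPM. None of those 7 was at 0 in any library. The 5 measured megakaryocyte markers summed to 149 and 102 CPM in the libraries labelled knockout and to 59.8 and 86.6 CPM in the controls. Of that sum Itga2b alone made up 103 and 59.3 CPM against 19.8 and 51 CPM. The log2 fold change was above 0 in 4 of the 5 and below 0 in 1, Gp9, at 8.48 and 12.4 CPM against 16.8 and 11.1 CPM. The 4 endothelial markers summed to 24.8 and 26.6 CPM against 11.8 and 9.99 CPM, and 7 hepatoblast markers to between 49.5 and 124 CPM with overlap. The 8 measured macrophage markers summed to 8.35 and 18.2 CPM in the libraries labelled knockout and to 44.4 and 20.8 CPM in the controls, and the part of these cells in any result below was not tested.

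The ATF4-bound element is shown first because the cytosolic genes that were higher in the libraries labelled knockout are mostly genes described as ATF4 targets. RefSeq promoter windows on GRCm38.p6, from 250 bases before to 50 bases after a start site, were found by symbol for 31 of the 42 genes. The letters TGATGNAA, a form of the element bound by ATF4 with C/EBP proteins, were searched on both strands, so that TTNCATCA marks a match on the opposite strand. Of 7 windowed genes on the ATF4 list 5 held a match, and of the 24 other windowed genes 0 did, including 0 of 14 mitochondrial genes. The list names genes already described as ATF4 targets and was chosen with earlier results known, so this contrast is no independent evidence. Of all genes with a window 4.51% held a match, and of all 32851 windows 3.97% did. Sars, Eprs, Cars, Nars and Lars were higher in both libraries labelled knockout and are not among the genes with a match. Most of these had no window and so were not searched, and no match was found in the rest. The 5 genes with a match were Gars, Aars and Yars, which were higher in both, and Iars and Tars, which overlapped between groups. One match of each of these 5 genes is printed within 30 bases, with the 8 matched bases in capitals:
Gars, chr6:55037960-55037989, plus strand: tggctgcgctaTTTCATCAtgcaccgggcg
Aars, chr8:111033840-111033869, plus strand: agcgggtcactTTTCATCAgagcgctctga
Yars, chr4:129189895-129189924, plus strand: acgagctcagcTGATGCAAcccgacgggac
Iars, chr13:49682126-49682155, plus strand: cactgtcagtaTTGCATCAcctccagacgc
Tars, chr15:11399655-11399684, minus strand: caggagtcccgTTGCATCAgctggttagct

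The matches began 30 bases before the start site in Gars and 15 before it in Tars. Those printed for Yars, Iars and Aars began 3, 7 and 9 bases after it. Aars held a further match, not printed, that began 112 bases before its start site. A match describes letters in a window and says nothing of binding in these cells. The 250 bases before the start are shown for Gars and Tars, since these genes share the element and differed in their values (Gars higher in both libraries labelled knockout than in both controls, Tars overlapping), with capitals again for matched bases:
Gars, chr6:55037751-55038000, plus strand: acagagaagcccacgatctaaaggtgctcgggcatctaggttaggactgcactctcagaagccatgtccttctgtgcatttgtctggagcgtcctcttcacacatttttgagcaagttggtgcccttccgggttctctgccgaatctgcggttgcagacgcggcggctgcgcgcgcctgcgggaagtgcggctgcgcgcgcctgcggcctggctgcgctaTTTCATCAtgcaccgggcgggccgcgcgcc
Tars, chr15:11399659-11399908, minus strand: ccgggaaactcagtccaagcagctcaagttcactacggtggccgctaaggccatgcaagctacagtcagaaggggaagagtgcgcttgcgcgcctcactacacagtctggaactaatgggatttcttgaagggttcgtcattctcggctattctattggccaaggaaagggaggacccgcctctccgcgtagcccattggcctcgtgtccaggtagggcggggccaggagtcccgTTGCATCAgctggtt

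None of the 42 genes passed edgeR's quasi-likelihood test between knockout-labelled and control libraries at an adjusted p below 0.05, where 0.103% of all genes passed. The adjusted p of the members ran from 0.332 (Sars) to 0.993 (Eef1e1). At an unadjusted p below 0.05 there were 3 higher (Sars, Eprs and Fars2), against 9.82% of all genes, and 1 lower (Mars2), against 2.08%. DESeq2 called Sars alone, as higher, where it called 3.29% of all genes higher and 0.196% lower. The likelihood ratio test of edgeR likewise called only Sars, where it called 3.09% of all genes higher and 0.168% lower. No member was called by limma-voom, which called 0.0747% of all genes, all higher. In the authors' deposited table no member, and 0.0747% of all genes, had an adjusted p below 0.05, and the smallest was 0.394, again for Sars. Values below therefore describe these 4 libraries.

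**Figure D1:**
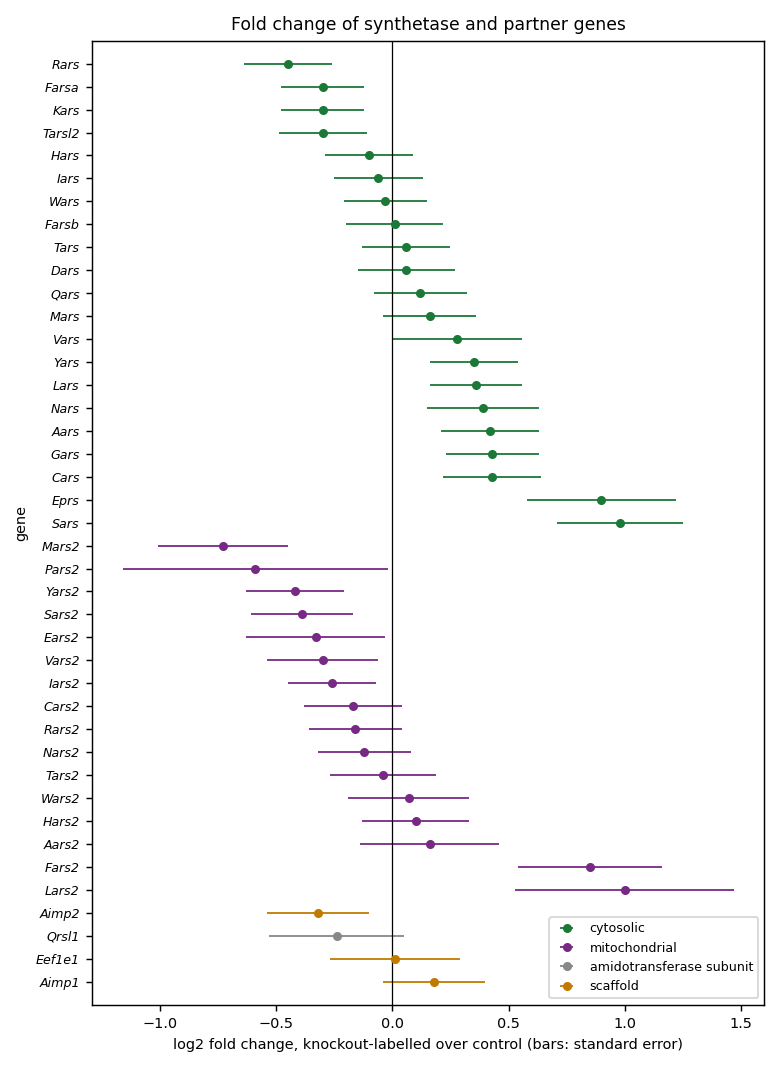
Log2 fold change of knockout-labelled over control libraries (horizontal axis) for 41 of the 42 genes (vertical axis), with bars for the standard error. Cytosolic genes run from -0.45 (Rars) to 0.98 (Sars), and 11 of the 16 mitochondrial genes drawn lie below 0.

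The cytosolic genes did not move as a block. Their median log2 fold change was 0.12, beside 0.00 for all genes tested, with 14 above 0 and 7 below. In 8 of the 21 both libraries labelled knockout lay above both controls, as they did in 27.4% of all genes, and in 5 both lay below, as in 26.7%. The median in knockout-labelled replicate 1 was 0.23 above the control mean on the log2 scale, and that in replicate 2 was 0.02 below it.

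Sars encodes seryl-tRNA synthetase (ENSMUSG00000068739, chromosome 3 of NCBIM37, 108227783 to 108248127, minus strand) and had the highest fold change of the cytosolic genes. It was at 455 and 297 CPM in the libraries labelled knockout and at 178 and 203 CPM in the controls. The groups did not overlap, and replicate 1 was farther from the controls. Sars averaged 376 ± 111 CPM against 190.3 ± 18 CPM (SD, n = 2 each), a 1.98-fold ratio. On the log2 scale this was 0.98 (SE 0.27), and edgeR gave an adjusted p = 0.332. The adjusted p was 0.0329 by DESeq2 and 0.0447 by the likelihood ratio test. Over all 14 alternatives the adjusted p ran from 0.00387 to 1.0 and the log2 fold change from 0.64 to 1.25.

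Eprs encodes the only enzyme here that charges a pair of amino acids, glutamate and proline, and it sits in the multi-synthetase complex. Eprs (ENSMUSG00000026615, chromosome 1, 187186974 to 187252234, plus strand) was at 695 and 400 CPM in the libraries labelled knockout and at 264 and 322 CPM in the controls. The lower knockout-labelled value was closer to the higher control than to the other knockout-labelled library. The log2 fold change was 0.90 (SE 0.32, adjusted p = 0.4), a 1.87-fold ratio. Without knockout-labelled replicate 1 it was 0.45 and without replicate 2 it was 1.24.

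A further 6 cytosolic genes were higher without overlap, by 1.27-fold to 1.35-fold. Gars, which serves both cytosol and mitochondria with glycyl-tRNA, was at 341 and 293 CPM in the libraries labelled knockout and at 235 CPM in both controls (log2 fold change 0.43, SE 0.20, adjusted p = 0.433). Its control values were nearly equal. Cars, for cysteine, was at 184 and 142 CPM in the libraries labelled knockout against 119 and 123 CPM (0.43, SE 0.21). Aars, for alanine, was at 552 and 498 CPM against 419 and 368 CPM (0.42, SE 0.21). The other 3 were Nars for asparagine (0.39), Lars for leucine (0.36) and Yars for tyrosine (0.35), and in each of the 6 replicate 1 was again the higher of the libraries labelled knockout. Nars and Lars are on chromosome 18, Gars on 6, Cars on 7, Aars on 8 and Yars on 4, so these genes do not share a locus.

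All 8 genes that were higher without overlap belong to the 12 cytosolic genes described as ATF4 targets (66.7% of the list, beside 27.4% of all genes). On the list 0 were lower without overlap, beside 26.7% of all genes. The list is from general knowledge and was chosen with earlier results of these data known, so its direction is no independent evidence. The 12 had a median log2 fold change of 0.38, or 0.48 and 0.24 in the separate libraries labelled knockout, and the median ran from 0.24 to 0.47 over the alternatives. The list's 4 other genes overlapped between groups: Mars, for methionine (0.16), Tars, for threonine (0.06), Wars, for tryptophan (-0.03), and Iars, for isoleucine (-0.06). Wars, which is also known as an interferon-induced gene in other cells, was at 60.8 and 57.6 CPM in the libraries labelled knockout and at 58.3 and 63 CPM in the controls, with no order between the groups. Iars and Tars hold the element printed above. Iars was at 247 and 234 CPM against 242 and 261 CPM, and Tars at 155 and 138 CPM against 132 and 150 CPM. The last bases of Mars overlap those of Ddit3, the gene of the stress factor CHOP, on the opposite strand by 68 bases, 1.99% of the exons of Mars, and the strand of the libraries is not stated.

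The 9 other cytosolic genes had a median of -0.10, with -0.11 and -0.15 in knockout-labelled replicates 1 and 2, and from -0.17 to -0.05 over the alternatives. Of these 0 were higher without overlap and 5 were lower (55.6%), beside 27.4% and 26.7% of all genes. Rars, for arginine (ENSMUSG00000018848, chromosome 11, 35621883 to 35648008, minus strand), was lowest of all 21, at 63.1 and 72.2 CPM in the libraries labelled knockout and at 84.7 and 99.8 CPM in the controls. Both knockout-labelled values of Rars were below both controls, and the log2 fold change was -0.45 (SE 0.19, adjusted p = 0.433). Farsa, the alpha subunit of the phenylalanine enzyme, was at 91.3 and 89.9 CPM against 107 and 116 CPM (-0.30, SE 0.18), while Farsb, the beta subunit of that enzyme, overlapped at 154 and 124 CPM against 127 and 149 CPM (0.01, SE 0.21). Kars, which serves cytosol and mitochondria with lysyl-tRNA, was at 148 and 156 CPM against 176 and 197 CPM (-0.30). Tarsl2, a second threonine enzyme gene, was at 79.4 and 95.5 CPM against 107 and 108 CPM (-0.30, SE 0.19, adjusted p = 0.476), and Hars, for histidine, was lower by the least (-0.10). The overlapping genes of this group were Farsb, Vars (0.28), Qars (0.12) and Dars (0.06).

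**Figure D2:**
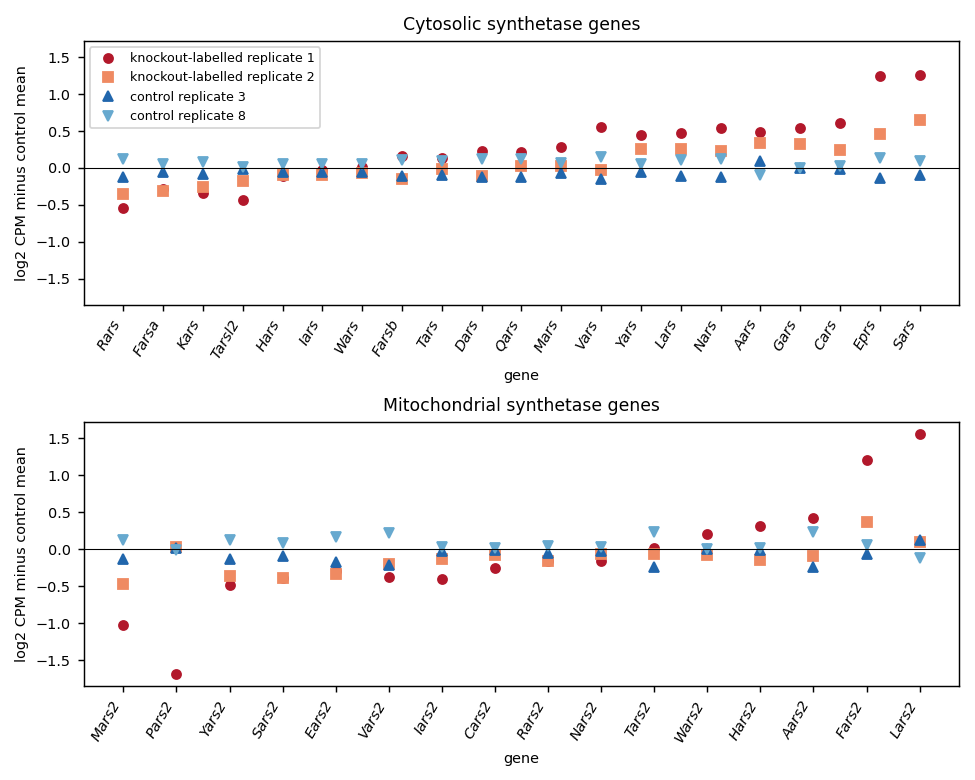
Log2 CPM of each library minus the mean of the controls (vertical axis) for each cytosolic gene (upper panel) and 16 mitochondrial genes (lower panel), ordered by fold change. Sars lies at 1.26 and 0.65 in the libraries labelled knockout, while Lars2 and Pars2 stand apart in replicate 1 (1.56 and -1.69) and lie near the controls in replicate 2 (0.10 and 0.03).

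Membership of the multi-synthetase complex did not line up with a direction. The 8 complex enzymes had a median log2 fold change of 0.09 and the 13 cytosolic genes outside it one of 0.28. Within the complex, Eprs (0.90) and Rars (-0.45) were the outermost of the 8, and 4 of the 8 overlapped between groups. Of the scaffold genes, Aimp1 and Eef1e1 overlapped with the controls and Aimp2 was lower. Aimp1 was at 81.3 and 60.2 CPM in the libraries labelled knockout against 58.2 and 66.4 CPM (0.18, SE 0.22, adjusted p = 0.672), and Eef1e1 was at 73.4 and 50 CPM against 50.9 and 71.9 CPM (0.01, SE 0.28, adjusted p = 0.993). Aimp2 was at 38.9 and 52.8 CPM against 58.2 and 56.6 CPM, without overlap (-0.32, SE 0.22, adjusted p = 0.49), and the value was -0.12 without knockout-labelled replicate 1 and -0.57 without replicate 2. Exons of Eif2ak1, the gene of the haem-regulated eIF2alpha kinase, cover 29.4% of the exon bases of Aimp2 on the opposite strand, and Eif2ak1 itself was at 1016 and 1002 CPM against 987 and 723 CPM, so that the value of Aimp2 is uncertain. Split by catalytic class, the 10 class I genes had a median of 0.22 and the 11 class II genes one of 0.06, each with members in both directions.

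Mitochondrial synthetase genes were mostly lower in the libraries labelled knockout by small amounts. Their median log2 fold change was -0.17, with 12 of 17 below 0, and it was -0.26 and -0.13 for the separate libraries labelled knockout. Both libraries labelled knockout lay below both controls in 9 of the 17, where 26.7% of all genes did. They lay above both controls in 1 (Fars2), where 27.4% of all genes did. The median stayed between -0.27 and -0.11 over the alternatives. Genes of mitochondrial ribosomal proteins, which serve the same translation system, had a median of -0.19 with 38 of 74 lower without overlap and 5 higher. The mitochondrial synthetases were not tested against that set.

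Mars2, the mitochondrial methionine enzyme (ENSMUSG00000046994, chromosome 1, 55294021 to 55296902, plus strand), had the lowest fold change of all 42 genes. It was at 10.1 and 14.9 CPM in the libraries labelled knockout and at 18.9 and 22.8 CPM in the controls, from counts of 310, 576, 521 and 1077. Averages of 12.5 ± 3.41 against 20.8 ± 2.73 CPM (SD, n = 2 each) gave a log2 change of -0.73 (SE 0.28, adjusted p = 0.419). Yars2, for tyrosine, was at 20.8 and 22.6 CPM against 26.5 and 31.7 CPM (-0.42, SE 0.21, adjusted p = 0.438). In Mars2 and Yars2 both libraries labelled knockout were below both controls, and so they were in Sars2 (-0.39), Ears2 (-0.33), Iars2 (-0.26), Cars2 (-0.17), Rars2 (-0.16) and Nars2 (-0.12).

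Pars2, for proline, was at 1.63 and 5.47 CPM against 5.4 and 5.34 CPM, from counts of 50, 211, 149 and 253. Only replicate 1 was low, and replicate 2 was level with the controls (-0.59, SE 0.57). Exons of Rab3gap2 on the opposite strand cover 22.7% of those of Iars2, and Hars2, for histidine (0.10), overlaps its neighbour Hars on the opposite strand of chromosome 18 by 195 exon bases. The remaining overlapping mitochondrial genes were Aars2 (0.16), Wars2 (0.07), Tars2 (-0.04) and Vars2 (-0.30).

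Of the mitochondrial genes, 2 stood well above 0. Fars2, the single-chain mitochondrial phenylalanine enzyme (ENSMUSG00000021420, chromosome 13, 36209280 to 36629461, plus strand), was at 58.5 and 32.7 CPM in the libraries labelled knockout and at 24.3 and 26.3 CPM in the controls. Both libraries labelled knockout were above both controls. The log2 change was 0.85 (SE 0.31, adjusted p = 0.413), and it was 0.37 without knockout-labelled replicate 1. Lars2, the mitochondrial leucine enzyme (ENSMUSG00000035202, chromosome 9, 123276058 to 123371782, plus strand), was at 581 and 212 CPM against 215 and 181 CPM. Its high value was that of knockout-labelled replicate 1, and replicate 2 lay within the controls' range, so that the log2 fold change of 1.0 (SE 0.47, adjusted p = 0.433) was 0.10 without replicate 1.

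Lars2 differed from the other mitochondrial genes in level as well. It alone made up 25.4% to 31.7% of the summed CPM of the 17 genes in 3 libraries and 56.8% in knockout-labelled replicate 1. A gene chosen after its values were seen, Rn18s, which is the entry for 18S ribosomal RNA, was at 2568 and 966 CPM in the libraries labelled knockout and at 906 and 777 CPM in the controls. The ratio of Rn18s to Lars2 was 4.42, 4.56, 4.22 and 4.29 in the 4 libraries in that order, so the entries kept nearly the same ratio while each was highest in replicate 1. The part of ribosomal RNA in the Lars2 count was not tested. Without Lars2 the median of the mitochondrial genes was -0.21.

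**Figure D3:**
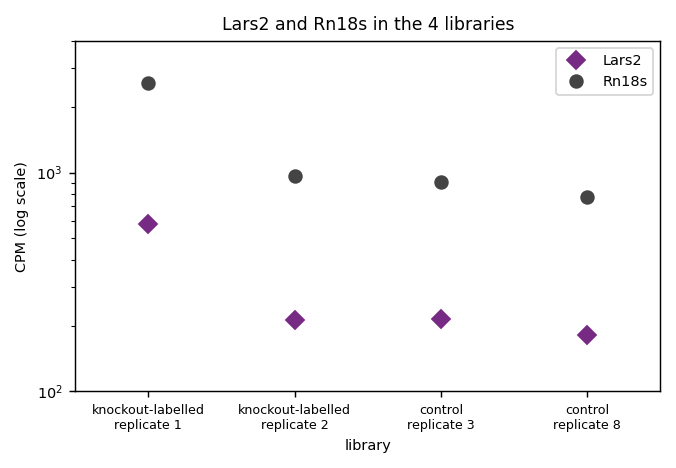
Level in CPM (vertical axis, log scale) of Lars2 and of the ribosomal RNA entry Rn18s in each of the 4 libraries (horizontal axis). Both are highest in knockout-labelled replicate 1, at 581 and 2568 CPM, and similar in the other 3 libraries.

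The direct comparison of cytosolic with mitochondrial enzymes gave a difference of medians of 0.29 on the log2 scale, with the cytosolic genes higher. By library it was 0.49 and 0.11 for knockout-labelled replicates 1 and 2, where the controls lay at -0.03 and 0.03 around their own mean. Matched by amino acid, 14 pairs have 1 cytosolic and 1 mitochondrial gene, and in 10 of them the cytosolic gene had the higher fold change. The median difference within pairs was 0.38, with 0.53 and 0.16 in the knockout-labelled replicates. In 6 pairs both libraries labelled knockout had a larger difference than both controls, and in 1 pair (arginine) a smaller one. For single genes 27.4% of all genes lay higher without overlap and 26.7% lower. The share among other pairs of genes was not computed, so these counts describe the 14 pairs only.

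Among the 14 pairs the serine pair was farthest apart, with a difference of 1.38 (Sars 0.98, Sars2 -0.39), which was 1.64 and 1.04 in the knockout-labelled replicates and 0.00 in both controls. It was followed by methionine (0.89), tyrosine (0.77) and cysteine (0.60), among the pairs reported by name. The 4 pairs in which the mitochondrial gene had the higher fold change were leucine (-0.64), arginine (-0.29), histidine (-0.20) and tryptophan (-0.11). The leucine value is that of Lars2 in knockout-labelled replicate 1 (-1.09), since in replicate 2 the difference was 0.15. Phenylalanine, which has 2 cytosolic subunit genes and is not among the 14 pairs, went the other way in both libraries labelled knockout: Farsa minus Fars2 was -1.49 and -0.68, and Farsb minus Fars2 was -1.05 and -0.52. Eprs, which serves glutamate and proline and so is not among the 14 pairs either, was above both mitochondrial counterparts: Eprs minus Ears2 was 1.23 (1.55 and 0.80 by library), and Eprs minus Pars2 was 1.49 (2.94 and 0.43).

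**Figure D4:**
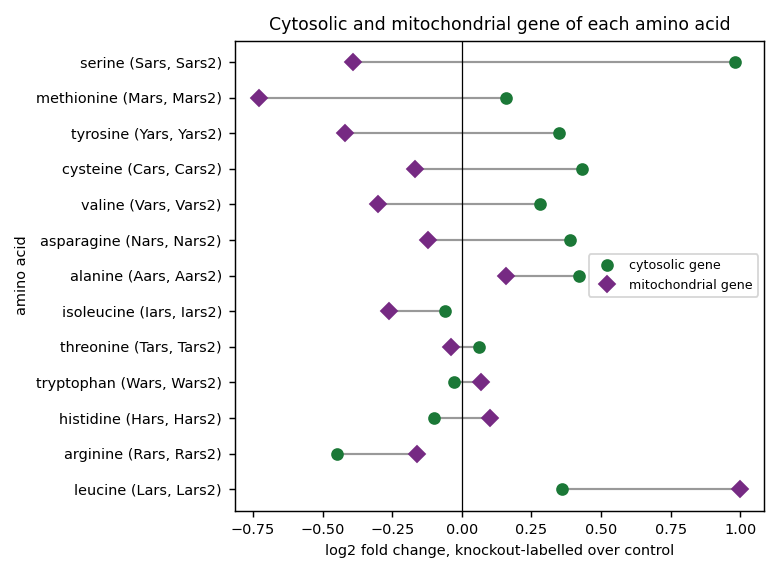
Log2 fold change of knockout-labelled over control libraries (horizontal axis) of the cytosolic and the mitochondrial gene for 13 of the 14 amino acids (vertical axis), joined by a line. The cytosolic gene lies to the right in 9 of the 13 pairs drawn, and of these the serine pair is farthest apart, by 1.38.

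Levels were compared between genes only per length, as CPM per kb of annotated exon. The median of the cytosolic genes was 45.1 and 49.4 CPM per kb in the controls and 58.8 and 50.8 in the libraries labelled knockout. The mitochondrial median was 8.25 and 8.37 in the controls and 6.61 and 7.18 in the libraries labelled knockout. The ratio of these medians was 5.47 and 5.91 in the controls and 8.9 and 7.08 in the libraries labelled knockout, so both of the latter lay above both controls. The ratio of summed CPM, in which Lars2 weighs more, overlapped: it was 5.73 and 6.14 in the controls and 5.51 and 6.79 in the libraries labelled knockout, and without Lars2 it was 8.31 and 8.23 against 12.7 and 9.94. In 13 of the 14 pairs the cytosolic gene was the more abundant per length in every library, and the exception was leucine, where Lars2 exceeded Lars. Nars was the most abundant cytosolic gene (175 CPM per kb, mean of the controls) and Wars the least (17.6). Among mitochondrial genes Iars2 (14.4) was next after Lars2 (51), and Ears2 (1.22) and Wars2 (1.38) were lowest. Tars2, next to Iars2 in that order, had 10.7 and 15 CPM per kb in the controls against 14.2 and 14.7 for Iars2, a gap within the spread of Tars2. In bulk RNA a smaller share of cells that express a gene and less RNA per cell cannot be told apart.

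**Figure D5:**
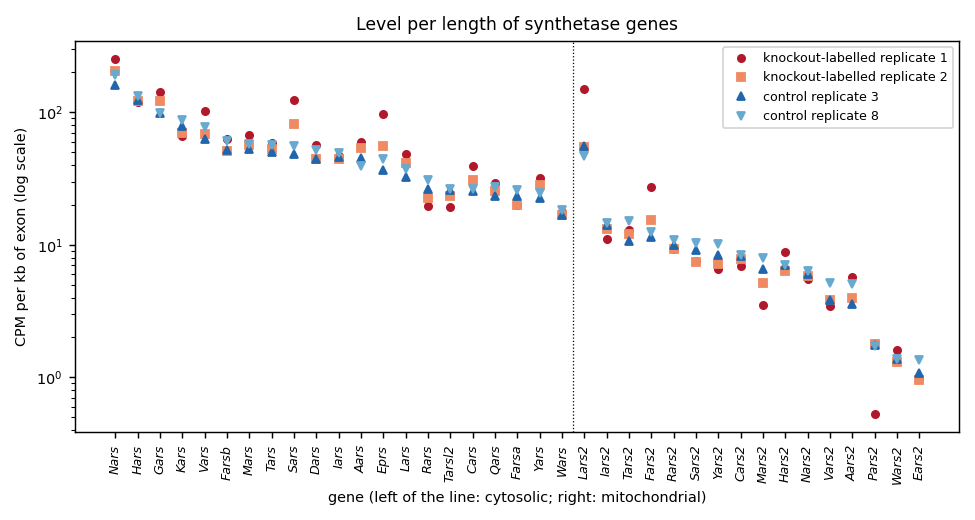
Level in CPM per kb of exon (vertical axis, log scale) of each cytosolic gene (left of the dotted line) and 16 mitochondrial genes (right) in the 4 libraries, ordered by the control mean. Apart from Lars2, every mitochondrial gene drawn lies below the cytosolic median of 45.1 to 58.8 CPM per kb in all libraries.

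Qrsl1 encodes a subunit of the amidotransferase that makes glutaminyl-tRNA in mitochondria, which lack a glutamine enzyme of their own. It was at 6.13 and 7.2 CPM in the libraries labelled knockout and at 6.85 and 8.87 CPM in the controls, with overlap (-0.24, SE 0.29, adjusted p = 0.67), and the value was -0.05 without control replicate 8 and -0.41 without control replicate 3. Of the other genes of special charging and proofreading, 9 of 13 listed were measured, with a median of -0.07 and 0 called. Sepsecs, which completes the charging of selenocysteine tRNA, had the smallest p of these, at 34 and 16.8 CPM against 14 and 14.9 CPM (0.81, SE 0.36, adjusted p = 0.433).

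Genes that make tRNA, export it or deliver it after charging were read from lists, and 0 members of each passed edgeR's quasi-likelihood test. The 22 measured processing and export genes had a median log2 fold change of -0.24, with 11 lower and 2 higher without overlap, beside 26.7% and 27.4% of all genes. Xpot, the exporter of tRNA from the nucleus, was one of the 2, at 246 and 205 CPM against 151 and 168 CPM (0.50, SE 0.20, adjusted p = 0.419), while Pop1, a subunit of the tRNA-trimming enzyme RNase P, was at 8.81 and 16.3 CPM against 22.3 and 25.3 CPM (-0.92, SE 0.34, adjusted p = 0.413). The 21 genes of RNA polymerase III transcription, which makes tRNA, had a median of -0.15. The 6 measured delivery genes had a median of 0.04, with 3 above 0 and 3 below. Of these, the elongation factor gene Eef1a1, whose product carries charged tRNA to the cytosolic ribosome, was at 7721 and 5996 CPM against 4659 and 5469.7 CPM (0.44, SE 0.31). Tufm, the mitochondrial elongation factor with that role, was at 56.9 and 76.2 CPM against 85.3 and 89.5 CPM (-0.39, SE 0.21). Eef1b2, a subunit of the exchange factor that recharges the cytosolic factor with GTP, was at 1059 and 828 CPM against 555 and 689 CPM (0.60, SE 0.26). In each of these the groups did not overlap.

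The sensor of uncharged tRNA, Eif2ak4 (GCN2), was at 28.5 and 21.6 CPM in the libraries labelled knockout and at 20.5 and 22.3 CPM in the controls (0.23, SE 0.23), and Atf4 was at 714 and 462 CPM against 474 and 398 CPM (0.43, SE 0.28, adjusted p = 0.483). Both overlapped. Of 19 other measured genes described as ATF4 targets, 4 were called higher, beside 0.103% of all genes, and 18 were higher without overlap, beside 27.4%. This list too was chosen with earlier results known. They had a median log2 fold change of 1.81 (1.98 and 1.81 in the knockout-labelled replicates) against 0.38 for the 12 synthetases described as such. Trib3, a pseudokinase gene induced under stress, had 4.89 (SE 0.35, adjusted p = 0.027). The difference between these lists was not tested. Genes whose symbols begin with Eif, mostly translation initiation factors, numbered 50 without the kinases and had a median of -0.06. The 79 measured cytosolic ribosomal protein genes had a median of 0.57, with 59 higher and 5 lower without overlap, beside 27.4% and 26.7% of all genes.

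Replicate 1 was the more distant of the libraries labelled knockout for most members. In 36 of the 42 genes knockout-labelled replicate 1 was farther from the control mean than replicate 2, as it was in 8864 of all 10716 genes. With 1 library left in the knockout-labelled group, the spread comes from the 2 controls alone and the lone library is assumed to vary like them. In such a fit, without knockout-labelled replicate 2, edgeR called 10 members, where 17.3% of all genes were called higher and 15.3% lower. The 5 higher were Sars, Eprs, Cars, Fars2 and Lars2, and the 5 lower included Pars2, Mars2, Aimp2 and Rars. These 10 are 23.8% of the members, beside 32.6% of all genes. Without knockout-labelled replicate 1 no member was called, while 143 genes were (1.29% of all genes higher and 0.0467% lower).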

How the data were processed

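RNA sequencing counts of 4 libraries were analysed (2 knockout-labelled, 2 control). The authors deposited raw counts per gene, per the file headers, in a table of 10716 genes, each above 1 CPM in at least 2 libraries, together with their own log2 fold change, coded as control minus knockout and turned in sign here, and their p-value and adjusted p-value. The submitters' processing notes name, with no roles, HTSeq, TopHat2 2.0.8, Trimmomatic 0.30 and edgeR among other tools, and NCBIM37 (mm9) as the build. Strand and the handling of shared reads are not given in the sources used here.

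All genes were fitted in edgeR 4.0.16 (R 4.3.3) with filterByExpr (0 genes removed), TMM scaling, glmQLFit (robust=TRUE, legacy=TRUE) and glmQLFTest (two-sided). P-values were adjusted by Benjamini and Hochberg's method across the whole table, with a threshold of 0.05 and 2 residual degrees of freedom. The fit was tested on simulated data. The standard error is the absolute log2 fold change over the square root of F. A prior count of 2 was added for log2 CPM per library. The common biological coefficient of variation was 25.6%. Alternatives were RLE scaling, no scaling, no or a stricter filter, DESeq2 1.42.0, limma-voom (limma 3.58.1) and the likelihood ratio test. Further ones were legacy=FALSE, a covariate of the labelled sex, robust=FALSE and each library left out in turn.

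Positions and exon lengths came from GENCODE M1 on NCBIM37 (all 42 members found). The values of 1 mitochondrial member are not reported here, although counts and medians include it. Promoter sequences are RefSeq's on GRCm38.p6. Members, lists and the naming rule were chosen with earlier results of these data known. The rule gives full values for called members, the 6 cytosolic, 5 mitochondrial and 3 scaffold genes with the smallest p, the lowest and highest fold change of each set, Qrsl1 and Tarsl2. From each other list the 3 genes with the smallest p could be named; any other gene, such as Eif2ak4, was chosen for its role after its values were seen.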

Additional observations from a re-analysis of the deposited data

How the results depend on the processing

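Counts of calls depended on the test and on single libraries, and the medians less so. The sex covariate used the labelled sex, which Y-linked counts did not match in 3 of the 4 libraries. Over all genes the 11 calls became 87 without library scaling, 374 with DESeq2, 349 with the likelihood ratio test and 41 with sex as a covariate, and from 27 to 3492 when 1 library was left out. The count of called members, 0, became 1 with DESeq2, 1 with the likelihood ratio test, and from 0 to 10 when 1 library was left out. The median log2 fold change of the mitochondrial genes ran from -0.27 to -0.11 without 1 library (-0.27 without knockout-labelled replicate 2, -0.26 without control replicate 3). The cytosolic median, 0.12, ran from -0.03 (without knockout-labelled replicate 1) to 0.22, and the difference of the medians from 0.11 to 0.48. Eef1e1 ran up to 0.27 when 1 library was left out and turned negative without library scaling (-0.08), with limma-voom (-0.01), and without knockout-labelled replicate 1 (-0.30) or control replicate 3 (-0.22). Aimp1 did so without knockout-labelled replicate 1 (-0.05) and reached 0.37 without replicate 2. The cause was not tested. With 2 libraries a group and a count of 50 for Pars2 in 1 library, small differences are not detectable. No paired analysis was possible because the groups share no replicate number.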
